A study of Mus musculus with 27 samples.

Results

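The 10 regulators described here are transcription factors of epithelial fate, listed by name and grouped by their known role. No value of these libraries enters the list's rule, but the list was chosen with earlier results of these data known. The regulators are 10 of the 50559 gene symbols in the count table. Trp63 and Sox2 stand for the basal state, Klf4, Grhl1 and Grhl3 for squamous differentiation, and Elf3, Ehf, Klf5, Grhl2 and Spdef for luminal fate. Their RNA was measured in mouse thyroid gland organoids (mTGOs), 3D structures grown in Matrigel from dissociated thyroid glands of C57BL/6 mice aged 8 to 12 weeks. All cultures received EGF, FGF2, B27 and Y27632, and irradiated groups received photons after 5 days of growth. Non-irradiated organoids were collected at days 5, 7 and 11, and organoids given 2, 4 or 7 Gy were collected at days 7 and 11, which gave 9 groups of 3 libraries each. The day 5 and 0 Gy groups carry no treatment, and no group carries a transgene. The 3 libraries of each group came from cultures named mTG11, mTG12 and mTG14, while the design text counts 4 mice and the titles number 3. The methods describe replicates as coming from separate animals, but no source used here ties a culture to a mouse number.

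p63, the product of Trp63, is the master regulator of stratified and basal epithelium. It has an upstream promoter, which gives the TA forms, and an internal promoter, which gives the shorter ΔN forms that prevail in basal cells. Counts of 3′ ends cannot tell these forms apart. Sox2 is an HMG-box factor of foregut progenitors and of airway and oesophageal basal cells. Klf4 is a zinc finger factor needed for the skin barrier, and Klf5, its relative, is found in dividing epithelial progenitors and in simple epithelia. The grainyhead-like factors Grhl1, Grhl2 and Grhl3 bind one shared motif and control desmosomes, junctions and barrier closure. Elf3, Ehf and Spdef are epithelium-specific members of the ETS family, of which Spdef is known for goblet and secretory cells. Thyroid follicles are a simple epithelium, and basal or squamous programmes are not part of normal follicular cells.

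Sequencing was Smart3SEQ, which reads the 3′ ends of polyadenylated RNA, and library totals ran from 2528866 to 5723150 counts. Levels are given as counts per 1000000 of the library total (CPM), so that a level is comparable between libraries of one gene but is not scaled to length and is not compared between genes. The mean correlation of a library with the others of its group was 0.964 to 0.980. Of the 8 follicular thyroid markers, Foxe1 (20.3 to 43 CPM) and Nkx2-1 (6.32 to 21.5 CPM) had counts in all 27 libraries, whereas Pax8 had none in 14, Hhex in 16, Tshr in 20 and Slc5a5 in 21. Tg was between 0 and 16.7 CPM. Thus 2 of the 8 markers of the labelled tissue were present in every library. Endothelial Emcn, the T cell gene Cd3e and parathyroid Gcm2 were at 0 in all 27 libraries, and Ptprc, which marks blood cells, was at 0 in 20. Other markers of such cells were present. The immune markers Cd68 (4.14 to 59 CPM) and Lyz2 (1.35 to 16.2 CPM) had counts in all 27 libraries. So did the fibroblast markers Col1a1 (1.67 to 56 CPM) and Col1a2 (0.714 to 56.7 CPM). Endothelial Pecam1 was at 0 in 7 libraries and parathyroid Pth in 12.

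The genes lie on 9 chromosomes of the GRCm39 build, in coordinates taken from the GENCODE vM39 annotation. The basal pair is Trp63 (chr16:25502513-25710852, plus strand, 12 exons in its canonical transcript) and the single-exon gene Sox2 (chr3:34704554-34706610, plus strand), which lies within the long noncoding gene Sox2ot. The squamous genes are Klf4 (chr4:55527139-55532528, minus strand), Grhl1 (chr12:24622197-24669816, plus strand) and Grhl3 (chr4:135268329-135300992, minus strand). The luminal genes are Elf3 (chr1:135181306-135188999, minus strand), Ehf (chr2:103093778-103133623, minus strand), Klf5 (chr14:99536086-99552473, plus strand), Grhl2 (chr15:37233280-37363813, plus strand) and Spdef (chr17:27933326-27947929, minus strand). Within Grhl2 the antisense gene Gm16136 has a mean level equal to 56.9% of that of Grhl2. The strand setting of the counting is not given in the sources used here, so reads of the pair may not be separated. Sox2ot reached 0.649% of the Sox2 level. Estimated counts of Klf4 were fractional in all 27 libraries, as occurs where reads are divided between genes, and those of Grhl3 were whole in all 27.

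The promoters of Elf3, Spdef and Trp63 are shown because Elf3 and Spdef belong to one family and rose together from day 5 to day 7, while Trp63 fell from day 7 to day 11. Each is the 250 bases before the start of the canonical transcript, 5′ to 3′ on the strand of the gene, in GRCm39. Capitals mark CACCC, the core of the KLF motif, read on either strand. The windows are chr1:135186307-135186556 on the minus strand for Elf3, chr17:27947930-27948179 on the minus strand for Spdef, and chr16:25620416-25620665 on the plus strand for Trp63. The windows of Elf3 and Trp63 lie inside the gene, since each has at least 1 transcript that starts further upstream.
Elf3: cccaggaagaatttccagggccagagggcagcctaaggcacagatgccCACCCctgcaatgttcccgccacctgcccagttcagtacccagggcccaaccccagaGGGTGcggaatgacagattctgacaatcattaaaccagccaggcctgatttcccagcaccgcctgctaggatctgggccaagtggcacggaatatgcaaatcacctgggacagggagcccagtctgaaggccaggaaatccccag
Spdef: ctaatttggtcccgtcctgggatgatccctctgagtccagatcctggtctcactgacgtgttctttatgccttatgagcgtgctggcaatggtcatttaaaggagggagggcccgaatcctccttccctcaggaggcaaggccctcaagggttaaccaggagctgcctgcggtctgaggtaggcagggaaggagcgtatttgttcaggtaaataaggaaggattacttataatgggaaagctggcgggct
Trp63: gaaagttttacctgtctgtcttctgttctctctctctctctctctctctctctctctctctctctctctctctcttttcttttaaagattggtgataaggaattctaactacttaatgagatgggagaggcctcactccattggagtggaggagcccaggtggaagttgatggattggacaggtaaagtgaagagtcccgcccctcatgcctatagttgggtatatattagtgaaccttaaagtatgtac

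Among the 10 promoters, CACCC or its reverse complement was found in 4 (Grhl1, Grhl3, Elf3 and Klf5), beside 52.9% of 21770 promoters of the same length. In Elf3 the matches began 202 and 145 bases before the start. The grainyhead-like motif AACCNGTT (1.79% of all promoters), the AP-1 motif TGANTCA (6.17%), the ETS motif CCGGAA (12.4%) and the SOX motif ACAAAG (15.9%) were each found in 0 of the 10. TATAAA (11.9%) was found in Grhl3 alone. All were read on both strands, and none of these letter strings contains another. A missing match says only that the letters are not in this window.

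All 10 regulators were detected in every library. Their mean levels lay at or above the percentile 76.2 of all genes in the table. Spdef was the scarce one, with 5 to 44 counts per library, against a floor of 3 counts, and its values carry the widest counting error. Elf3 had the widest range among the other 9, with the highest library 5.99 times the lowest, and Klf5 the narrowest, with 1.45 times. Klf5, Grhl2, Sox2 and Klf4 had group means that differed by at most 1.32 times between the highest and the lowest of the 9 groups.

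Trp63 was highest in the non-irradiated groups of day 5 (136 ± 20.3 CPM, mean ± SD, n = 3) and day 7 (130.3 ± 7.48), followed by 2 Gy at day 7 (105 ± 15.1), 4 Gy at day 7 (97.1 ± 6.17) and 7 Gy at day 11 (95.2 ± 7.28). Below these came 7 Gy at day 7 (83.8 ± 3.69), 2 Gy at day 11 (82.2 ± 3.26), 4 Gy at day 11 (78.1 ± 11.4) and 0 Gy at day 11 (74.9 ± 18). In that order, the libraries of neighbouring groups overlapped except at the steps from 0 Gy to 2 Gy at day 7 and from 7 Gy at day 11 to 7 Gy at day 7.

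The group means of Elf3 were ordered by day. They were highest at day 11, at 261 ± 79.6 CPM with 4 Gy, 241 ± 31.5 with 0 Gy, 239.5 ± 52.1 with 2 Gy and 207 ± 33.5 with 7 Gy. Day 7 followed, at 139.8 ± 18.9 with 0 Gy, 111 ± 33.5 with 2 Gy, 97.7 ± 13.3 with 4 Gy and 91.3 ± 3.97 with 7 Gy, and day 5 was lowest at 70.6 ± 14.5. Neighbours in this order overlapped except at the steps between the days. Beyond neighbours, the 2 Gy library of mTG12 at day 7 (72.5 CPM) lies within the range of day 5 (54.4 to 82.5 CPM). Ehf had another order: its highest group was 0 Gy at day 7 (229 ± 23.4), clear of all others, and its lowest was day 5 (110.4 ± 3.81), also clear. Between these, the 4 groups of day 11 (172 ± 20 to 183 ± 19.2) and the 3 irradiated groups of day 7 (142 ± 20.5 to 171 ± 36.2) followed each other with overlap at every step.

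**Figure D1:**
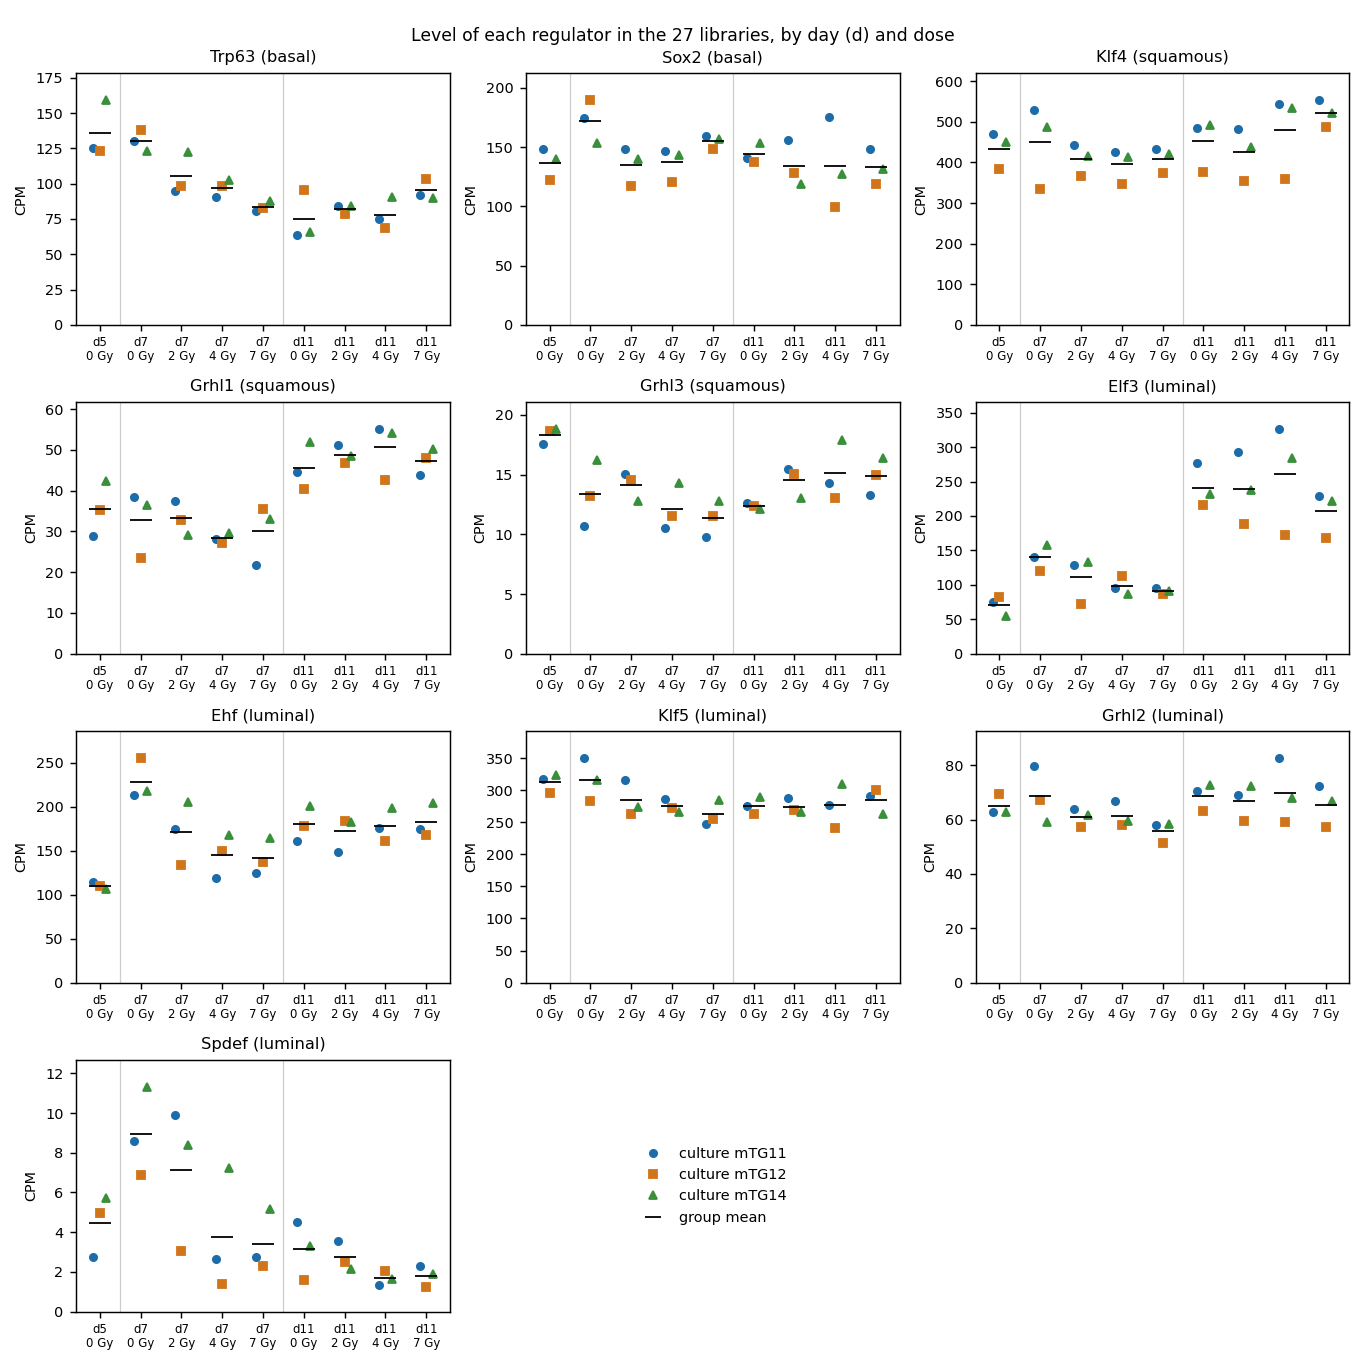
CPM of each of the 10 regulators (vertical axis, from 0) in the 27 libraries, by day and dose (horizontal axis); symbols are the 3 cultures and dashes the means of 3 libraries. Elf3 climbs by day from a mean of 70.6 to 241 CPM at 0 Gy, Trp63 steps down with dose at day 7 from 130.3 to 83.8 CPM, and Klf5 stays between means of 263 and 316 CPM.

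Growth without irradiation, from day 5 to day 11, came with a rise of the ETS factors Elf3 and Ehf and a fall of Trp63. Elf3 rose 3.8-fold, Ehf 1.81-fold and the squamous regulator Grhl1 1.42-fold, while Trp63 fell to 0.608 of its day 5 level. Thus 4 of the 10 passed the test, 3 higher and 1 lower, beside 41.3% of 18442 genes tested (21.3% higher and 20.1% lower). The share of the members called is close to that of all genes. The median log2 change of the 10 was 0.21, and that of all genes 0.06.

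Elf3 stood at 74.8, 82.5 and 54.4 CPM in cultures mTG11, mTG12 and mTG14 at day 5, at 141, 120.3 and 158 at day 7 and at 276, 215 and 232 at day 11. The 3 sets of libraries do not overlap. It rose at both steps, with a log2 fold change 1.14 ± 0.16, adjusted p = 0.000493 from day 5 to day 7 and 0.78 ± 0.15 (adjusted p = 0.00295) from day 7 to day 11, and 1.93 ± 0.16 (adjusted p = 1.97e-06) over the whole course. Ehf, also an ETS factor, stood at 114, 109.9 and 107 CPM at day 5, 213, 256 and 218 at day 7 and 161, 179 and 201 at day 11. It was highest at day 7 in each culture. It rose from day 5 to day 7 (log2 fold change 1.20 ± 0.12, adjusted p = 4.32e-05) and was still raised at day 11 against day 5 (0.85 ± 0.12, adjusted p = 0.000107). The step down from day 7 to day 11 passed by a small margin (-0.35 ± 0.11, adjusted p = 0.047). That call was lost without mTG12 or mTG14 of day 7 (adjusted p = 0.165 and 0.0894) and without mTG11 or mTG12 of day 11 (0.163 and 0.114).

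Spdef, the secretory member of the family, stood at 2.76, 4.94 and 5.7 CPM at day 5, 8.6, 6.89 and 11.3 at day 7 and 4.52, 1.61 and 3.3 at day 11, which are 8 to 20, 26 to 44 and 6 to 19 counts. Its day 7 libraries lie above all those of days 5 and 11. The rise to day 7 passed the test (log2 fold change 1.13 ± 0.35, adjusted p = 0.0368), and so did the fall from day 7 to day 11 (-1.49 ± 0.36, adjusted p = 0.0106), which left day 11 against day 5 at -0.35 ± 0.40 (adjusted p = 0.524). The rise was not called without mTG11 or mTG12 of day 5 (adjusted p = 0.124 and 0.0761) or mTG11 or mTG14 of day 7 (0.0625 and 0.141). The remaining luminal regulators did not pass. Klf5 ran between 263 and 350 CPM in the 9 non-irradiated libraries, and its day 11 against day 5 change of -0.03 has a 95% interval of -0.22 to 0.15. Grhl2 ran between 59.2 and 79.7 CPM, with an interval of 0.01 to 0.45 for the same comparison. The unadjusted p of Grhl2 in edgeR was not under 0.05, so this interval, a normal approximation, is too narrow.

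Of the basal pair, Trp63 stood at 125, 123 and 159 CPM at day 5, 130, 138 and 123 at day 7 and 63.3, 95.7 and 65.7 at day 11. Every day 11 library lies below every earlier one, and the smallest fall within a culture was in mTG12. From day 5 to day 7 the value was 0.09 ± 0.14 (adjusted p = 0.729), and from day 7 to day 11 Trp63 fell (log2 fold change -0.80 ± 0.15, adjusted p = 0.00211), as it did from day 5 to day 11 (-0.72 ± 0.15, adjusted p = 0.00205). Sox2 stood at 148, 122 and 140 CPM at day 5, 174, 189.6 and 153 at day 7 and 141, 137 and 153 at day 11. It rose from day 5 to day 7 (log2 fold change 0.48 ± 0.11, adjusted p = 0.00885), and its day 11 against day 5 value was 0.22 ± 0.11 (adjusted p = 0.139). At day 11 against day 7, Sox2 was at -0.26 ± 0.11 (adjusted p = 0.114) and Trp63 had fallen. Whether the courses of the pair differ was not tested.

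Of the squamous regulators, Grhl1 passed in one comparison. It stood at 29, 35.4 and 42.3 CPM at day 5, 38.6, 23.6 and 36.5 at day 7 and 44.5, 40.5 and 52 at day 11, where the day 11 libraries lie above those of day 7 but overlap those of day 5. The rise from day 5 to day 11 (log2 fold change 0.50 ± 0.19, adjusted p = 0.0484) was at the threshold: it was lost without mTG11 or mTG12 of day 5 (adjusted p = 0.163 and 0.114) or mTG11 or mTG14 of day 11 (0.076 and 0.172), and without scaling by library composition (0.153). Day 11 against day 7 gave 0.47 ± 0.18 (adjusted p = 0.0923), and with the culture as a block 0.48, adjusted p = 0.0196, where 5 of the 10 members and 24.8% of all genes were called. Grhl3 stood at 17.6, 18.6 and 18.8 CPM at day 5, 10.7, 13.3 and 16.2 at day 7 and 12.6, 12.3 and 12.1 at day 11. The later libraries without irradiation lie below those of day 5, but the changes did not pass (-0.30 ± 0.18, adjusted p = 0.263 at day 7 and -0.42 ± 0.18, adjusted p = 0.0766 at day 11). Klf4 had means of 434, 450 and 452 CPM at days 5, 7 and 11, with a day 11 against day 5 interval of -0.12 to 0.53 on the log2 scale.

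By step, 4 of the 10 passed from day 5 to day 7, all higher, beside 21.6% of all genes (12% higher and 9.62% lower). From day 7 to day 11, 4 passed, 1 higher and 3 lower, beside 21.2% of all genes (9.57% higher and 11.7% lower). These comparisons share libraries. Scaling moved the zero line of the 2 comparisons against day 5: without correction for library composition, the median of all genes was lower by 0.14 on the log2 scale in both, and the directions of the called members stayed as given. In bulk libraries, fewer cells of a type and less RNA per cell cannot be told apart.

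**Figure D2:**
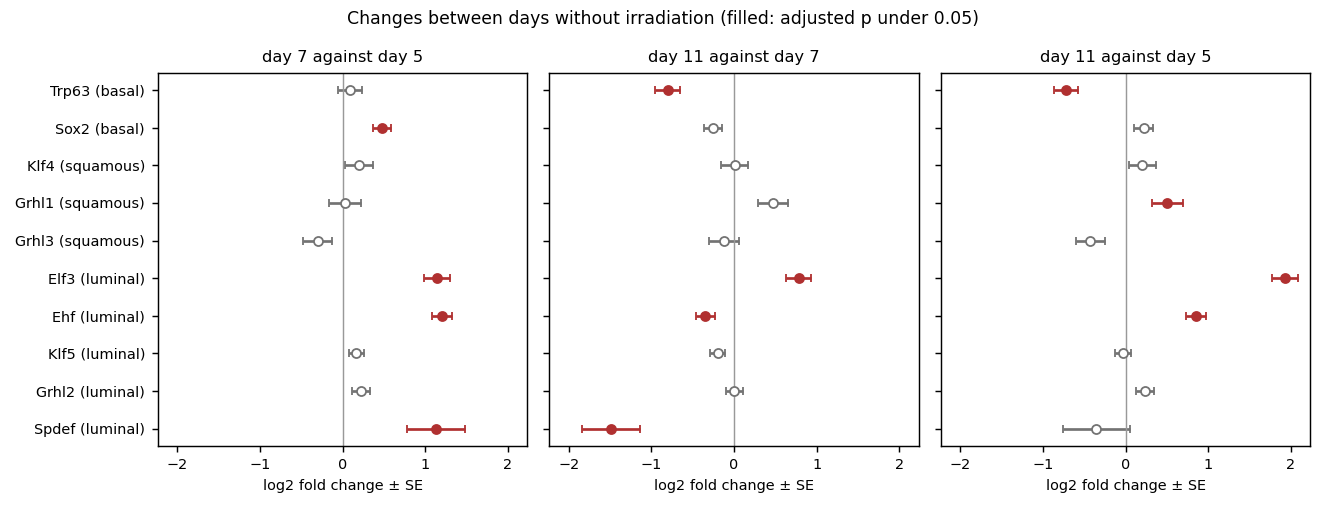
Log2 fold change (horizontal axis) with its standard error for the 10 regulators, in the 3 comparisons of days without irradiation; filled points have an adjusted p under 0.05. Elf3 lies to the right in all 3 panels, Trp63 lies to the left in the 2 panels of day 11, and Spdef is at 1.13 ± 0.35 in the first step and -1.49 ± 0.36 in the next.

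Lists of genes that these factors are known to control or accompany were tested in the same fits. Their counts stand beside the shares of all genes called. These were 21.3% higher and 20.1% lower from day 5 to day 11. From day 5 to day 7 they were 12% and 9.62%, and from day 7 to day 11 they were 9.57% and 11.7%. Of 26 luminal and secretory genes, 17 rose and 5 fell from day 5 to day 11, with a median log2 change of 2.24, and their summed level went from 3787 to 4619 CPM at day 5 to 7468 to 11285 at day 7 and 16118 to 19672 at day 11. Ltf, which encodes lactotransferrin, rose (6.46 ± 0.22, adjusted p = 4.21e-09), as did the tight junction genes Cldn4 (2.92 ± 0.15, adjusted p = 7.8e-08) and Cldn7 (2.55 ± 0.16, adjusted p = 2.81e-07) and the epithelial adhesion gene Epcam (1.64 ± 0.09, adjusted p = 1.27e-07). From day 5 to day 7, 16 of the 26 rose and 1 fell, and from day 7 to day 11, 11 rose and 4 fell.

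Of 18 basal genes and p63 targets, 3 rose and 11 fell from day 5 to day 11 (median -0.56). At day 7, 4 had risen and none had fallen (4 had with the culture block), and 12 fell from day 7 to day 11, beside 11.7% of all genes. Trp63 and all 10 proliferation genes fell in that interval too, and a link between these falls was not tested. The basal keratins Krt5 (-1.15 ± 0.11, adjusted p = 4.48e-06) and Krt14 (-2.31 ± 0.24, adjusted p = 1.2e-05), the hemidesmosome integrin Itga6 (-1.25 ± 0.12, adjusted p = 6.46e-06) and the laminin subunit Lamb3 (-1.19 ± 0.14, adjusted p = 3.07e-05) had the lowest adjusted p. The summed level of the list was 17217 to 20610 CPM at day 5, 14599 to 16844 at day 7 and 6996 to 9732 at day 11.

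Of 24 squamous differentiation genes, 4 rose and 18 fell from day 5 to day 11 (median -1.97), although none of Klf4, Grhl1 and Grhl3 fell by the test. The cornified envelope gene Sprr1b fell (-8.50 ± 0.22, adjusted p = 9.5e-10) and the late differentiation gene Krtdap fell too (-5.93 ± 0.27, adjusted p = 2.96e-08). From day 5 to day 7, 6 of the 24 rose, among them Sprr2a3 (1.29 ± 0.08, adjusted p = 3.06e-06), and 8 fell. The small proline-rich genes are near-identical copies, so reads can be split between them and their values are uncertain. The summed level was 18530 to 22736 CPM at day 5, 17781 to 23542 at day 7 and 10236 to 11896 at day 11.

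Among 36 tested transcription factors of epithelia outside the 10, 9 rose and 12 fell from day 5 to day 11, 9 rose and 6 fell at the first step, and 5 rose and 10 fell at the second step. Over the course, the homeodomain-only factor Hopx (2.33 ± 0.25, adjusted p = 1.21e-05), Sox21 (0.95 ± 0.11, adjusted p = 2.74e-05) and Sox4 (0.91 ± 0.11, adjusted p = 3.2e-05) rose. With the culture as a block, 16 fell over the course instead of 12, and 10 instead of 6 at the first step. Over all 18442 genes the block called 3872 lower instead of 3700 over the course, and 2028 instead of 1775 at the first step. Of the 12 tested Klf genes beside Klf4 and Klf5, 5 rose and 3 fell, with Klf9 (1.54 ± 0.11, adjusted p = 7.05e-07) and Klf6 (0.61 ± 0.10, adjusted p = 0.000297) among those that rose and Klf13 (-0.74 ± 0.13, adjusted p = 0.000767) among those that fell. Of 7 transcription factors of epithelial-mesenchymal transition, 5 fell from day 5 to day 11. Most of the 7 are scarce: the medians over the 27 libraries were 0.501 to 0.791 CPM for Zeb1, Zeb2, Snai1 and Twist1, near the floor. They were 2.46 for Twist2, 4.5 for Prrx1 and 75.4 for Snai2. Of 8 fibroblast markers 5 fell as well, and the sum of these markers went from 32.1 to 116 CPM at day 5 to 5.95 to 38.3 at day 11.

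Other cell type lists were read by day as well. All 10 proliferation genes fell from day 5 to day 11 and 9 fell at the first step, with sums of 1135 to 1303 CPM at day 5, 553 to 680.1 at day 7 and 159.7 to 179 at day 11. All 6 multiciliated cell markers rose from day 5 to day 11, from 6.46 to 13.7 to 38.6 to 88.7 CPM. Of 6 immune markers 2 were tested, and only Cd68 was called, higher (2.99 ± 0.32, adjusted p = 1.44e-05). The list summed to 5.52 to 15.6 CPM at day 5 and 38.1 to 65.5 at day 11, and Cd68 made up most of it. Over the 27 libraries Cd68 had 3098 counts and Lyz2 570, while Ptprc was at 0 in 20 libraries, Cd79a in 23 and Cd3e in 27. Of 8 follicular thyroid markers 4 were tested, and Nkx2-1 rose (0.75 ± 0.19, adjusted p = 0.00632). With the culture as a block 1 was called higher and 1 lower. The sum of the list did not rise: it was 52.1 to 67.9 CPM at day 5, 32.3 to 45.9 at day 7 and 49 to 58.8 at day 11. The endothelial list summed to at most 1.46 CPM in any library, the parathyroid list to 4.56 and the C cell list to 3.80. The part of these cell types in the changes of the 10 regulators was not tested.

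**Figure D3:**
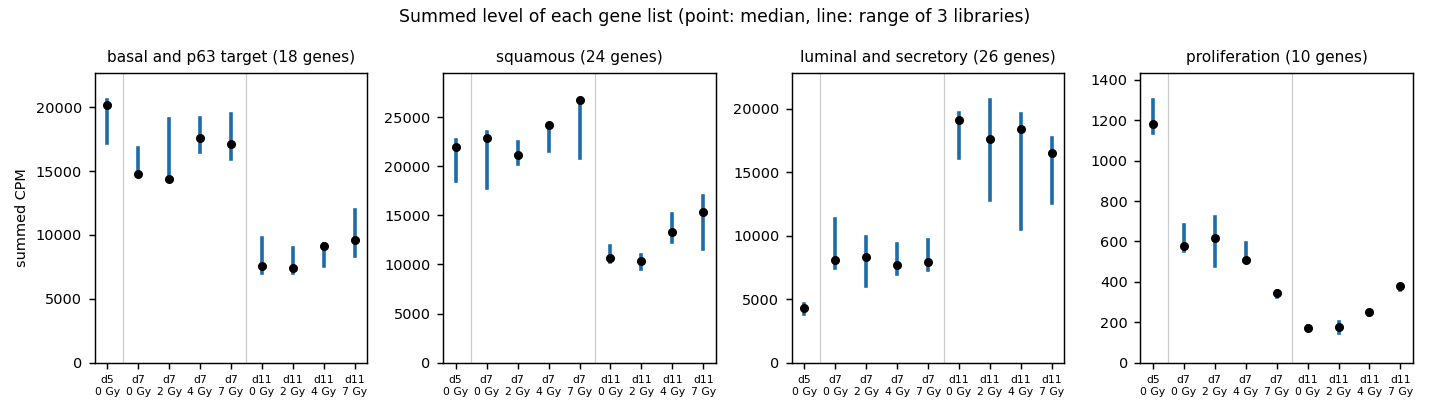
Summed CPM (vertical axis) of the basal, squamous, luminal and proliferation gene lists in the 9 groups of day and dose (horizontal axis); points are medians and lines the range of 3 libraries. At day 11 the basal and squamous sums are below those of days 5 and 7 at every dose, the luminal sum is above that of day 5, and the proliferation sum with 7 Gy is below that with 0 Gy at day 7 and above it at day 11.

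The comparisons of dose asked whether photon irradiation at day 5 changed these regulators at day 7 and at day 11. At day 7 the answer by the main test, which treats libraries of one culture as independent, was a fall of Trp63 and Ehf. Both fell at 4 Gy and at 7 Gy, and the trend over the 4 doses also passed for Elf3. With the culture as a block, Elf3 and Spdef were called lower too at 4 Gy and at 7 Gy. The block also called Sox2 lower at 4 Gy and Klf5 at 7 Gy. No member had a higher fitted level at 4 or 7 Gy than at 0 Gy. The median log2 change of the 10 was -0.27 at 2 Gy, -0.32 at 4 Gy and -0.29 at 7 Gy, where the median of all genes was 0.00, 0.01 and 0.01. The 3 dose comparisons of a day share their 0 Gy libraries, so they are not independent of each other.

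Trp63 stood at 130, 138 and 123 CPM with 0 Gy at day 7, 94.9, 98.4 and 123 with 2 Gy, 90.4, 98.6 and 102 with 4 Gy and 80.7, 82.7 and 87.9 with 7 Gy, in the order mTG11, mTG12 and mTG14. Each irradiated library lies below its culture at 0 Gy, and all 9 lie below the lowest 0 Gy library, that of mTG14 with 2 Gy by less than 1 CPM. At 7 Gy it was at 0.64 of the 0 Gy level (log2 fold change -0.64 ± 0.10, adjusted p = 0.00217), with changes of -0.69, -0.74 and -0.48 in the 3 cultures. At 4 Gy the value was -0.47 ± 0.10 (adjusted p = 0.0365) and at 2 Gy -0.34 ± 0.10 (adjusted p = 0.385). The trend was -0.09 ± 0.01 per Gy (adjusted p = 0.00144), and it was called with any 1 of the 12 libraries left out, as was the fall at 7 Gy with any 1 of the 6.

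Ehf stood at 213, 256 and 218 CPM with 0 Gy, 174, 133 and 206 with 2 Gy, 119, 150.2 and 168 with 4 Gy and 125, 137 and 165 with 7 Gy. All 9 irradiated libraries lie below all 3 of 0 Gy. It fell at 4 Gy (log2 fold change -0.70 ± 0.16, adjusted p = 0.049) and at 7 Gy (-0.69 ± 0.16, adjusted p = 0.0206), and its trend was -0.10 ± 0.02 per Gy (adjusted p = 0.0197). At 7 Gy the call was lost without mTG12 or mTG14 of 0 Gy (adjusted p = 0.0799 and 0.0591) or mTG11 or mTG12 of 7 Gy (0.093 and 0.082), and the call on the trend was lost without any of the same 4 libraries (0.0611 to 0.0807). With the culture as a block the 7 Gy value was -0.71, adjusted p = 0.00133.

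The calls at 4 Gy were marginal. Both Trp63 and Ehf were called without mTG14 of 4 Gy, and neither was called without any other of the 6 libraries (mTG11, mTG12 or mTG14 of 0 Gy, mTG11 or mTG12 of 4 Gy), with adjusted p of 0.0819 to 0.144 for Trp63 and 0.0867 to 0.177 for Ehf. Without scaling by library composition, 0 of the 10 were called at 4 Gy.

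Elf3 stood at 141, 120.3 and 158 CPM with 0 Gy, 128, 72.5 and 133 with 2 Gy, 95, 112 and 86 with 4 Gy and 95, 87.1 and 91.8 with 7 Gy. The 4 and 7 Gy libraries lie below those of 0 Gy, and the 2 Gy libraries overlap them. The trend passed (-0.09 ± 0.02 per Gy, adjusted p = 0.0387), but it was called in 1 of 12 fits that left out a library each, the one without mTG12 of 2 Gy, and in the other 11 the adjusted p was 0.0505 to 0.147. The highest was without mTG14 of 0 Gy. The single doses gave -0.57 ± 0.18 at 4 Gy (adjusted p = 0.144) and -0.62 ± 0.18 at 7 Gy (adjusted p = 0.0527). With the culture as a block these became -0.54, adjusted p = 0.0471 and -0.62, adjusted p = 0.014. Spdef went from 8.6, 6.89 and 11.3 CPM at 0 Gy to 2.76, 2.31 and 5.19 at 7 Gy, the steepest fitted value of the 10 (-1.38 ± 0.53, adjusted p = 0.145; with the block -1.40, adjusted p = 0.0109). At 4 Gy its libraries had 2.62, 1.4 and 7.24 CPM, so that mTG14 lies within the 0 Gy range.

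Klf5 and Grhl2 had fitted values of -0.28 ± 0.10 (adjusted p = 0.115) and -0.30 ± 0.11 (adjusted p = 0.138) at 7 Gy, and Klf5 was called with the block (-0.27, adjusted p = 0.0449). Sox2 had 174, 189.6 and 153 CPM at 0 Gy, 148, 117 and 139.9 at 2 Gy, 147, 121 and 144 at 4 Gy and 159.7, 148 and 157 at 7 Gy. Its 2 and 4 Gy libraries lie below all of 0 Gy, and those of 7 Gy overlap them. Its value was -0.38 ± 0.12 at 4 Gy (adjusted p = 0.135; with the block -0.38, adjusted p = 0.0419) and -0.16 ± 0.12 at 7 Gy (adjusted p = 0.474). The squamous regulators did not pass at any dose. At 7 Gy the 95% intervals were -0.44 to 0.15 for Klf4, -0.52 to 0.24 for Grhl1 and -0.64 to 0.14 for Grhl3 on the log2 scale.

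In counts, 0 of the 10 were called at 2 Gy by edgeR, beside 0.124% of 19346 genes, with 3 members (Trp63, Sox2 and Ehf) at an unadjusted p under 0.05 and 0 called by DESeq2. The other 7 had fitted values at 2 Gy from -0.45 for Spdef to 0.05 for Grhl3. At 4 Gy 2 were called, both lower, beside 1.63% of all genes (0.972% higher and 0.656% lower). At 7 Gy 2 were called, both lower, beside 6.95% (3.2% higher and 3.75% lower), and on the trend 3, all lower, beside 8.62% (3.9% higher and 4.72% lower). The libraries of one culture deviated together, so the fit with culture as a block is given too. It called 5 of the 10 at 4 Gy (Trp63, Sox2, Elf3, Ehf and Spdef) beside 5.22% of all genes, 5 at 7 Gy (Trp63, Elf3, Ehf, Klf5 and Spdef) beside 11.3%, and 5 on the trend (the same 5 as at 7 Gy) beside 11.9%. All calls were lower.

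**Figure D4:**
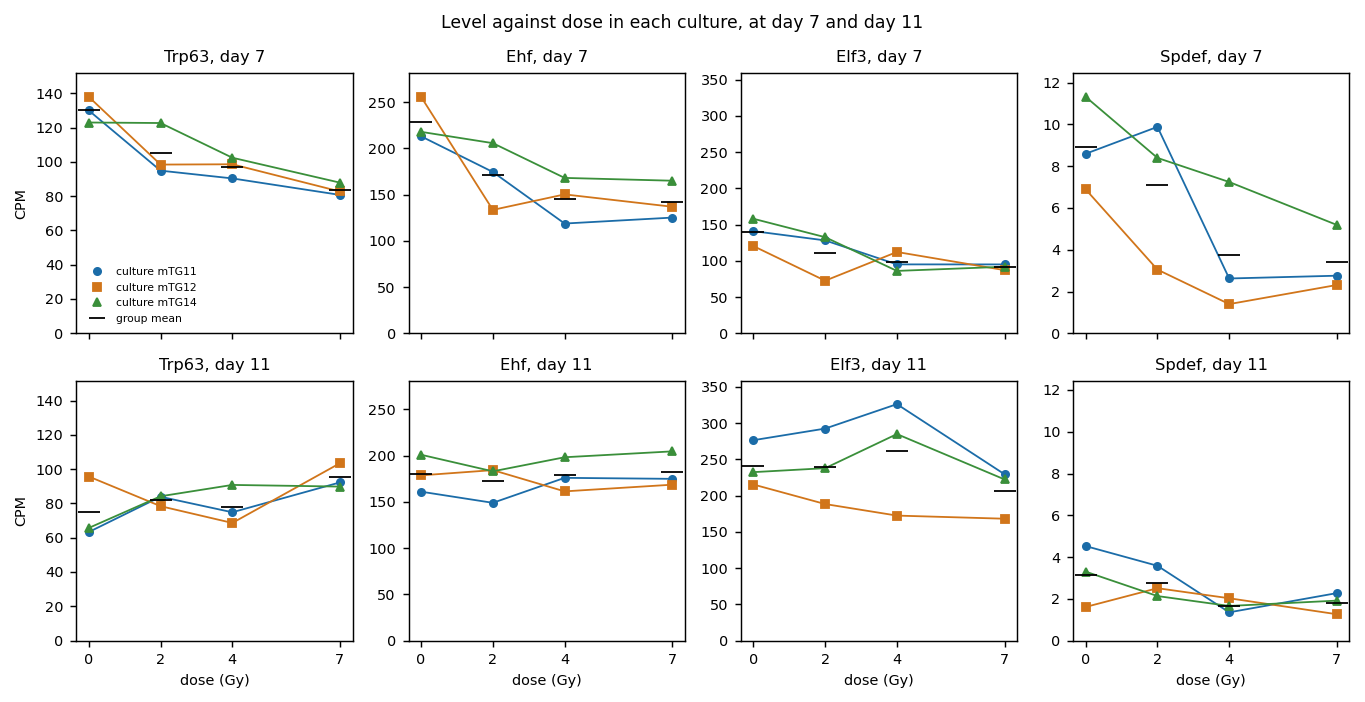
CPM (vertical axis, from 0) against dose in Gy (horizontal axis) for Trp63, Ehf, Elf3 and Spdef at day 7 (top) and day 11 (bottom); lines join the libraries of one culture and dashes are means of 3. At day 7 all 3 cultures end lower at 7 Gy than at 0 Gy in each of the 4 genes, and at day 11 all 3 end higher for Trp63, lower for Elf3 and Spdef, and in both directions for Ehf.

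At day 11, none of the 10 was called by edgeR at any dose. This was so at 2 Gy (beside 0% of 19901 genes), at 4 Gy (0.00502%), at 7 Gy (1.52%) and on the trend (2.51%). The number of members at an unadjusted p under 0.05 was 0, 1, 1 and 2 in these comparisons, and both DESeq2 and the fit with the culture block called 0 in each. The fitted values ran from -0.23 ± 0.39 for Spdef to 0.20 ± 0.16 for Grhl3 at 2 Gy, and from -0.92 ± 0.42 to 0.26 ± 0.16 for the same genes at 4 Gy. Across all genes, the 2 Gy comparison had 1159 at an unadjusted p under 0.05, 1 called by DESeq2 and 72 with the block. At this depth and with 3 libraries a group, these tests set limits and do not show equal levels.

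Trp63 stood at 63.3, 95.7 and 65.7 CPM with 0 Gy, 83.9, 78.4 and 84.2 with 2 Gy, 74.9, 68.6 and 90.8 with 4 Gy and 92.3, 103 and 89.8 with 7 Gy. At 7 Gy each culture was above its own 0 Gy value, but mTG12 at 0 Gy lies within the 7 Gy range. The value at 7 Gy was 0.31 ± 0.14 (adjusted p = 0.31), with an interval of 0.04 to 0.59. Ehf had 161, 179 and 201 CPM with 0 Gy and 175, 169 and 205 with 7 Gy, a value of -0.02 ± 0.13 with an interval of -0.28 to 0.24. Elf3 had 276, 215 and 232 with 0 Gy and 229, 168 and 222 with 7 Gy, each culture a little lower (-0.26 ± 0.22, adjusted p = 0.646, interval -0.68 to 0.16). Culture mTG12 had the lowest Elf3 of the 3 cultures in all 4 dose groups of day 11. Spdef had 7 to 13 counts in the 7 Gy libraries and 6 to 19 at 0 Gy (-0.83 ± 0.40, adjusted p = 0.358).

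For the other members none passed, and the 95% intervals of the log2 change at 7 Gy were -0.20 to 0.21 for Klf5, -0.24 to 0.27 for Grhl1, -0.39 to 0.17 for Grhl2, -0.16 to 0.49 for Klf4, -0.08 to 0.52 for Grhl3 and -0.51 to 0.21 for Sox2. Grhl3 had 12.6, 12.3 and 12.1 CPM with 0 Gy and 13.3, 14.9 and 16.4 with 7 Gy. All 9 irradiated libraries of day 11 lie above those of 0 Gy for this gene, but its values at the 3 doses did not pass (adjusted p of 0.562 to 0.959).

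**Figure D5:**
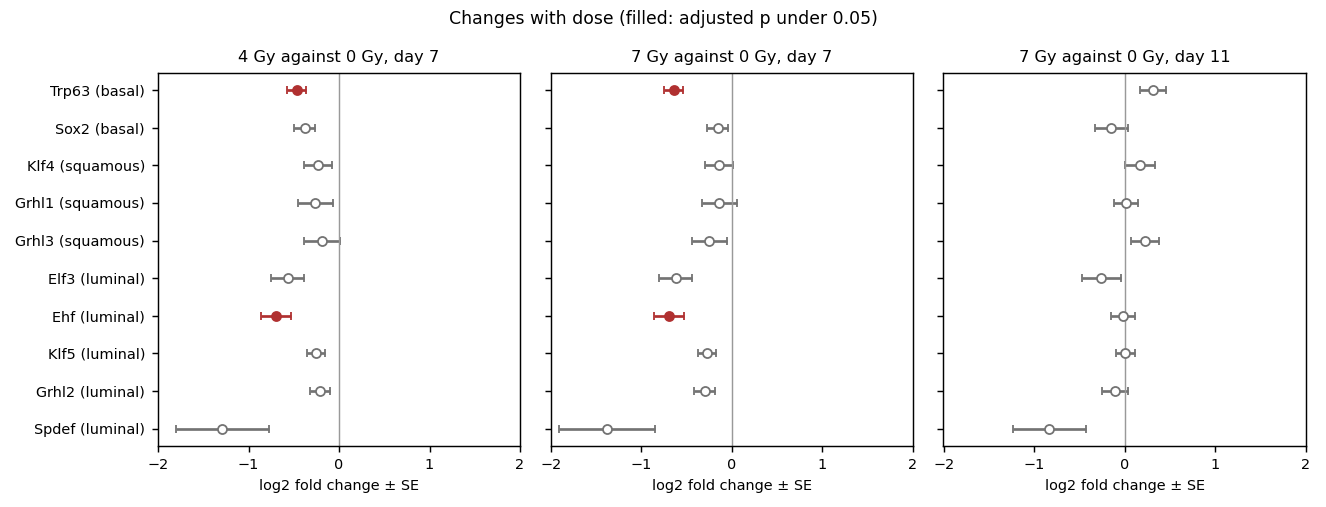
Log2 fold change (horizontal axis) with its standard error for the 10 regulators with 4 Gy and 7 Gy at day 7 and with 7 Gy at day 11, each against 0 Gy of the same day; filled points have an adjusted p under 0.05. All 10 points are left of 0 in the day 7 panels, with Trp63 and Ehf filled, and at day 11 they lie on both sides with none filled.

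Whether the response to 7 Gy differed between the days was tested by the difference of the responses. It passed for Trp63: the 7 Gy response was -0.64 ± 0.10 at day 7 and 0.31 ± 0.14 at day 11, a difference of 0.99 ± 0.18 (adjusted p = 0.0018), called with any 1 of the 12 libraries left out. For Ehf the difference was 0.70 ± 0.22 (adjusted p = 0.088), and with the culture as a block 0.72, adjusted p = 0.00794. It was not called for the other 8, which ranged from 0.04 for Sox2 to 0.57 for Spdef. So 1 of the 10 was called, higher at day 11, beside 3.02% of 21928 genes (2.22% higher and 0.807% lower), and 2 with the block, beside 5.27%. Of the 24 squamous genes 5 were called higher (11 with the block), among them Asprv1 (5.82 ± 0.87, adjusted p = 0.000228). The size of that value is uncertain, since the lowest library of Asprv1 had 0.238 CPM, below the floor. Of 37 other epithelial transcription factors 4 were higher and 1 lower (8 and 1 with the block), among them Foxm1, a factor of cell division (1.76 ± 0.42, adjusted p = 0.0193). In the same libraries all 10 proliferation genes were called in this test, with summed levels of 553 to 680.1 CPM at 0 Gy and 322 to 353 at 7 Gy on day 7, and 159.7 to 179 and 358 to 379.9 on day 11. Whether the change of Trp63 is part of the change in dividing cells was not tested.

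The gene lists around the regulators were also read by dose. With 7 Gy at day 7, where 6.95% of all genes were called, the squamous, transcription factor and basal lists had 9 of 24, 8 of 36 and 3 of 18 called. With the culture block 11.3% of all genes were called. Of 18 basal genes and p63 targets, 1 rose and 2 fell with 7 Gy at day 7. The growth factor receptor Fgfr2 (-1.16 ± 0.14, adjusted p = 0.000286) and the neurotrophin receptor Ngfr (-1.11 ± 0.32, adjusted p = 0.0495) fell. The median of the list was 0.19, while Trp63 fell. With the culture block 6 of these rose and 4 fell. Of 24 squamous genes 3 rose and 6 fell (median -0.22), with Ivl, which encodes involucrin, higher (0.82 ± 0.15, adjusted p = 0.00536) and Lor, which encodes loricrin, lower (-2.51 ± 0.39, adjusted p = 0.00175). Of 26 luminal genes 1 rose, Cldn4 (0.65 ± 0.14, adjusted p = 0.0129), and none fell, with 6 falling under the block. Of the 36 other epithelial transcription factors 2 rose and 6 fell (2 and 10 with the block), with Sox4 (0.66 ± 0.09, adjusted p = 0.000984) among those that rose and Sox15 (-0.69 ± 0.14, adjusted p = 0.00963) among those that fell.

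Of the 12 other Klf genes tested, Klf6 rose (0.39 ± 0.08, adjusted p = 0.00947) and Klf13 fell (-0.41 ± 0.11, adjusted p = 0.0408) with 7 Gy at day 7. With 7 Gy at day 11, Klf9 (-0.69 ± 0.12, adjusted p = 0.0142) and Klf10 (-0.92 ± 0.19, adjusted p = 0.0288) fell. At day 11, where 1.52% of all genes were called, none of the 36 transcription factors, 18 basal genes or 26 luminal genes was called at 7 Gy, whereas 3 of 24 squamous genes rose. These were Krtdap (1.78 ± 0.29, adjusted p = 0.0123), Asprv1 (3.55 ± 0.63, adjusted p = 0.0142) and Cnfn (2.04 ± 0.34, adjusted p = 0.0139), genes of the outer layers of skin. The lowest library of Asprv1 had 0.238 CPM, below the floor, so the size of its change is uncertain. With the culture block, 3 transcription factors rose and 3 fell, 3 basal genes rose, 1 luminal gene rose and 4 fell, and 9 squamous genes rose. The block called more genes in general here, 1297 of 19901 instead of 302. The proliferation list had 9 of 10 genes higher, and 2 of 6 multiciliated markers were lower (6 with the block), with sums of 38.6 to 88.7 CPM at 0 Gy and 14.5 to 37.9 at 7 Gy. The fibroblast markers summed to 21.2 to 111 CPM at 0 Gy and 47.1 to 114 at 7 Gy on day 7, and to 5.95 to 38.3 and 16.6 to 77.9 on day 11.

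Genes with a course most like that of each regulator were sought by Pearson's r of log2(CPM + 1) over the 27 libraries. Here, and for the pairs of regulators, CPM were scaled by library composition with TMM factors. The 9531 genes whose mean reached 10 CPM on that scale were used. These values describe one set of libraries in which day, dose and culture are shared by all genes. Elf3 had the closest followers: Parm1 (r = 0.982), Khnyn (0.974) and Wasl (0.970). Trp63 was followed by the teneurin Tenm4 (0.905), the sodium pump subunit Atp1b3 (0.876) and the histone methyltransferase Ezh2 (0.855). Ehf was followed by the nuclear receptor corepressor Nrip1 (0.918), Kif21a (0.917) and the inhibitor of differentiation Id2 (0.905). For Grhl1 they were Epn3 (0.911), Zfp750 (0.886), itself a factor of epidermal differentiation, and the protease gene Prss8 (0.882). Klf4 was followed by the water channel Aqp5 (0.861), Fut9 (0.849) and Usp25 (0.844), Grhl2 by Setbp1 (0.844), Lypd2 (0.816) and Rybp-ps (0.803), and Sox2 by Bspry (0.804), Stim2 (0.754) and Tst (0.726). Klf5, with Ankrd6 (0.787), Ppm1l (0.743) and Selenbp2 (0.735), and Grhl3, with Gltp (0.713), Urah (0.675) and Impdh2-ps (0.666), had the loosest. Spdef was below the minimum.

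Among the regulators themselves, the highest r over the 27 libraries was between Elf3 and Grhl1 (0.757), followed by Elf3 and Grhl2 (0.659), Klf4 and Grhl2 (0.651) and Elf3 and Ehf (0.627). The lowest was between Trp63 and Elf3 (-0.54). Within the basal pair r was 0.156, and between the relatives Klf4 and Klf5 it was 0.599.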

How the data were processed

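RNA of 27 organoid libraries was sequenced by Smart3SEQ from 80 ng of RNA each, as single reads of 75 bases. The values are estimated counts per gene symbol, which the authors deposited without normalization in 1 table of 50559 symbols. The submitters' processing notes name STAR, edgeR and the GRCm39 build. The counting tool, strand setting and any use of molecular identifiers are not given in the sources used here. Of the nonzero values, 56.3% were whole, so some reads were divided between genes, and values of genes with near-identical copies are less certain. The design had assumed whole counts, and the values were rounded.

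Levels are counts per 1000000 of the library total. Changes were tested with edgeR 4.0.16 in R 4.3.3 (quasi-likelihood test, TMM scaling, a minimum of 10 counts per gene in total across the fitted libraries) with Benjamini-Hochberg adjustment over all genes tested and a threshold of 0.05. Days were fitted over the 9 non-irradiated libraries, doses over the 12 libraries of a day, and the difference of the 7 Gy responses over the 24 libraries of days 7 and 11. Errors of log2 changes are standard errors and intervals are 1.96 standard errors to each side. This is a normal approximation. With so few libraries the intervals are narrower than the test's own, and one that leaves out 0 is not a call. The test was checked on simulated data with independent libraries and no effect of culture. That check cannot show how deviations shared within a culture affect the test. Alternatives were DESeq2 1.42.0, no TMM scaling, no filter beyond 1 count, the culture as a block, unrounded counts, only the 2 compared groups, and each library left out in turn.

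Deviations from the group means were shared within a culture: their correlations over 9537 genes averaged 0.263 to 0.419 between libraries of the same culture, the lowest being 0.134, and -0.13 to -0.21 between others. The negative values follow from centring each group of 3 libraries on its mean and add no separate evidence. The pairing comes from the culture identifiers in the column names. The main p-values measure the spread between libraries within groups and treat libraries of one culture as independent. Those with the culture as a block measure the spread left after the differences between cultures are taken out.

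All 10 regulators enter every comparison, by their own value or within a count or range. From each gene list at most 4 called genes with a mean of at least 10 CPM are named, those of lowest adjusted p. The regulators and lists were chosen with earlier results of these data known. Promoter sequence is from the GRCm39 genome and GENCODE vM39. A count of 3 was taken as the floor, which is 0.524 to 1.19 CPM, and covers counting error only. Some results on single genes and 1 promoter are not reported here.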

Additional observations from a re-analysis of the deposited data

Results flagged for a closer look

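The response of Trp63 to 7 Gy differed between the days by the test of the difference itself: it was 0.99 ± 0.18 higher at day 11 than at day 7 on the log2 scale (edgeR quasi-likelihood test, adjusted p = 0.0018, n = 3 libraries in each of 4 groups). At day 7 all 3 cultures were lower with 7 Gy than with 0 Gy, and at day 11 all 3 were higher. The summed level of the proliferation genes moved in the same directions, and its part in the result was not tested. Groups of 3 libraries were not tested for single libraries far from the rest.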

How the results depend on the processing

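No direction of a called change turned under any alternative run. With no filter on low counts, the regulators called were 2 in place of 0 at 2 Gy on day 7, 5 in place of 2 at 4 Gy, 4 in place of 2 at 7 Gy, and 2 in place of 1 for the difference of the 7 Gy responses. Calls over all genes rose as well in these comparisons, from 24 to 404, 315 to 1263, 1345 to 2211 and 663 to 1234. With the culture as a replicate block the regulators called were 5 at 4 Gy, 5 at 7 Gy and 5 on the trend at day 7, and 2 for the difference of responses. In the same order, the block called 5.22%, 11.3%, 11.9% and 5.27% of all genes. Beyond these regulators and Grhl1 at day 11 against day 7, the block changed no other call of a regulator. At 4 Gy on day 7, no TMM scaling gave 0 regulators and unrounded counts gave 1, beside 301 genes called in each. At 7 Gy a fit of only the 2 compared groups gave 4 regulators, beside 1209 genes.

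Leaving out 1 library gave 3 to 4 called regulators in each comparison of days, 0 to 2 at 4 Gy and 1 to 2 at 7 Gy on day 7, 1 to 4 on the trend at day 7, 1 in every fit of the difference of responses, and 0 at 2 Gy on day 7 and in every comparison of day 11. With TMM scaling of levels, 4 of 90 group means moved by more than 1 SD, all at day 5: Grhl3 to 17.0, Ehf to 103, Klf5 to 290 and Grhl2 to 60.3 CPM. With DESeq2, Grhl1 at day 11 against day 5, Spdef at day 7 against day 5 and Ehf at day 11 against day 7 were not called, while Elf3 at 7 Gy on day 7 (adjusted p = 0.0157) and Spdef on the trend at day 7 (adjusted p = 0.0484) were called. Depth limits Spdef most, at 5 to 44 counts per library.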
